A study of Citrus maxima with 12 samples.

Results

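In fruit of pomelo (Citrus maxima), 43 genes stood higher than in diseased Taoxi fruit in one of the cultivars Jinlan and Jinsha and lower in the other. They were 34 genes that were high in Jinsha and low in Jinlan, and 9 genes that were high in Jinlan and low in Jinsha. They were chosen from 30123 IDs starting with Cg in a table of 32863 IDs. A gene was a member when the group means of diseased Jinlan and diseased Jinsha differed from that of diseased Taoxi by at least 1.5-fold in opposite directions on the log2(mean FPKM + 1) scale, when diseased and control Taoxi differed by less than 0.8 log2 on that scale, and when the highest group mean was at least 3 FPKM. FPKM is a fragment count corrected for the length of the gene and for the size of the library, so levels can be set beside each other between genes. The level floor and the Taoxi limit together left 13138 IDs from which the members came. IDs come without gene names in the deposited table, so the functions of the members are not stated, and 2 genes of each direction are given by ID.

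The series compared fruit of 3 cultivars in work on black spot, a disease of the fruit, in Jinggang honey pomelo. The groups were control fruit and diseased fruit of Taoxi, diseased fruit of Jinlan and diseased fruit of Jinsha, each with 3 libraries. For Jinlan and for Jinsha, control fruit was not analysed here (6 unlabelled columns of the table, described with the processing, were not used), so a difference between cultivars that was there before disease and a difference in the response to disease cannot be told apart. Nothing in the labels ties a library to a fruit or a tree of its own, and the spread between libraries may be technical in part.

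Pomelo is one of the ancestral species of cultivated citrus, and its named cultivars are usually propagated by grafting. Cultivars of a species can differ widely in the transcript levels of single genes, in healthy fruit and under attack by a fungus alike. RNA from fruit tissue mixes cell types, and fewer cells of a type and less RNA per cell cannot be told apart. The labelled tissue, fruit, could not be checked against marker genes without gene names.

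The FPKM of a library summed to 560349 to 577783, and 21345 to 22431 IDs were above 0. The number of reads behind a value is unknown. The library labelled Taoxi control 1 stood apart from its group: across genes, its log2(FPKM + 1) values correlated at a mean of 0.955 with Taoxi controls 2 and 3 and at 0.990 with diseased Jinlan, while controls 2 and 3 correlated with each other at 0.996. Its values thus go against its label, and whether it holds the RNA that the label names could not be settled from the table. The choice of members left this library out, and the control values below are those of Taoxi controls 2 and 3 unless control 1 is named. With control 1 kept in the control mean, the same rule gave 9 genes high in Jinlan, all 9 of them shared, and 37 high in Jinsha, of which 32 were shared.

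**Figure D1:**
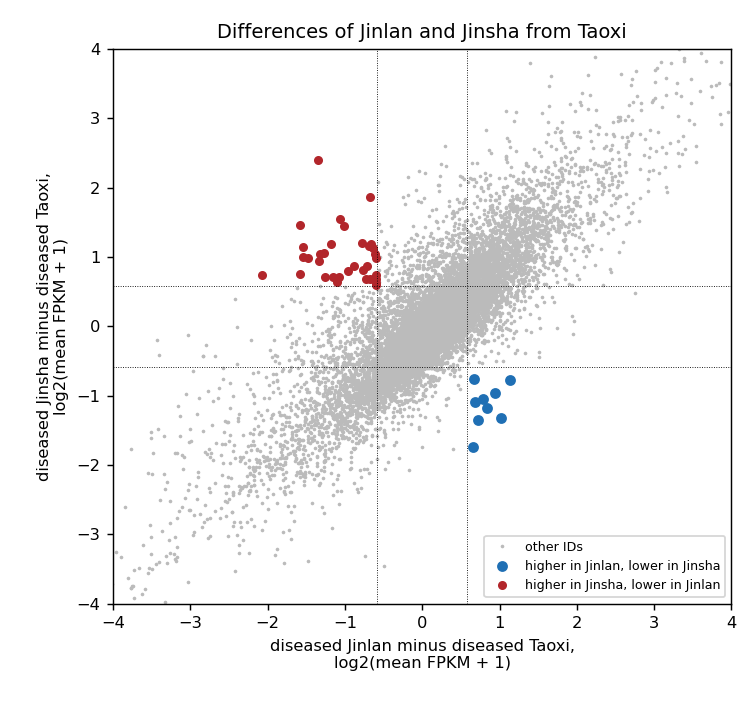
Difference of diseased Jinlan (x axis) and of diseased Jinsha (y axis) from diseased Taoxi in log2(mean FPKM + 1) for the IDs that met the level floor and the Taoxi limit; dotted lines mark a 1.5-fold difference on each side of 0, and 67 of 13138 points lie outside the axes. The 34 genes high in Jinsha and low in Jinlan sit at the upper left and the 9 genes high in Jinlan and low in Jinsha at the lower right, because they were chosen by these values.

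Among the 34 genes high in Jinsha, Cg3g001930 had the widest difference between the cultivars. It stood at 34.7, 52.4 and 53.9 FPKM in the Jinsha libraries, at 6.83, 8.69 and 8.64 FPKM in diseased Taoxi, and at 3.05, 1.95 and 2.62 FPKM in Jinlan. Taoxi controls 2 and 3 held 10.9 and 9.53 FPKM. The diseased groups did not overlap, and every Taoxi library of both states lay between the Jinlan and the Jinsha libraries. The means were 47.0 ± 10.7 FPKM in Jinsha, 8.05 ± 1.06 FPKM in diseased Taoxi and 2.54 ± 0.55 FPKM in Jinlan (SD, n = 3). Cg3g001930 was thus 18.5-fold higher in Jinsha than in Jinlan as a ratio of mean FPKM, a difference of -3.76 for Jinlan minus Jinsha on the log2(mean FPKM + 1) scale.

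Cg2g045240 followed, at a higher level in every group. It stood at 119, 122 and 171 FPKM in Jinsha, at 60.5, 44.3 and 43.0 FPKM in diseased Taoxi and at 14.7, 16.9 and 15.7 FPKM in Jinlan. Its controls, 64.9 and 53.6 FPKM, fell among or just above the diseased Taoxi libraries. The 3 diseased groups were again apart, with means of 137 ± 29.4, 49.3 ± 9.8 and 15.8 ± 1.1 FPKM (SD, n = 3). Jinsha stood 2.78-fold above diseased Taoxi and diseased Taoxi 3.12-fold above Jinlan, and the log2 difference between Jinlan and Jinsha was -3.04.

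Over the 34 genes, diseased Taoxi lay near the middle of the interval between Jinlan and Jinsha. Counted from 0 at the Jinlan mean to 1 at the Jinsha mean on the log2 scale, it stood at 0.27 to 0.74 with a median of 0.50. The log2 difference from diseased Taoxi had a median of 0.97 in Jinsha (0.59 to 2.41) and of -0.98 in Jinlan (-2.07 to -0.59), and was the larger in Jinsha for 17 of the 34. Jinlan and Jinsha differed by a median of -1.86 (-3.76 to -1.20), and by at least 4-fold on this scale for 14 genes. The rule sets these differences, so they describe the members and are no test of them.

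The genes high in Jinsha covered a wide range of levels. The median of their group means was 35.7 FPKM in Jinsha, 16.1 FPKM in diseased Taoxi, 19.3 FPKM in control Taoxi and 6.75 FPKM in Jinlan. The highest group mean was under 10 FPKM for 3 genes, from 10 to 100 FPKM for 23 and at or above 100 FPKM for 8. No member was at 0 in any library, and the lowest single value among them was 0.097 FPKM, in Jinlan. The most abundant stood at 338, 341 and 403 FPKM in Jinsha, 180.0, 164 and 181 FPKM in diseased Taoxi, and 116, 121 and 104 FPKM in Jinlan, and its groups did not overlap. The 8 abundant genes had a smaller median difference between the cultivars (1.5 log2) than the 26 others (1.98 log2), and ranged from 1.29 to 3.04, the value of Cg2g045240.

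The 9 genes high in Jinlan were led by Cg2g041840. Its levels were 12.7, 17.2 and 13.5 FPKM in Jinlan, against 10.2, 8.89 and 7.46 FPKM in diseased Taoxi, and 1.93, 1.89 and 2.03 FPKM in Jinsha, with 9.56 and 12.1 FPKM in Taoxi controls 2 and 3. The Jinsha libraries stood far below all others and hardly differed among themselves, while the lowest Jinlan library was only a little above the highest Taoxi library. The means were 14.5 ± 2.4 FPKM in Jinlan, 8.85 ± 1.37 FPKM in diseased Taoxi and 1.95 ± 0.07 FPKM in Jinsha (SD, n = 3). Jinlan was 1.64-fold above diseased Taoxi, and diseased Taoxi 4.54-fold above Jinsha.

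Cg9g003780 was more even on both sides of Taoxi. It stood at 15.7, 19.3 and 20.1 FPKM in Jinlan, at 11.1, 8.41 and 6.08 FPKM in diseased Taoxi and at 2.18, 2.62 and 3.63 FPKM in Jinsha, and its controls were at 6.12 and 7.67 FPKM. No diseased group overlapped another, and the widest relative spread was that of diseased Taoxi (8.54 ± 2.53 FPKM, against 18.4 ± 2.4 in Jinlan and 2.81 ± 0.74 in Jinsha; SD, n = 3). The log2 differences between Jinlan and Jinsha were 2.35 for Cg9g003780 and 2.39 for Cg2g041840.

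**Figure D2:**
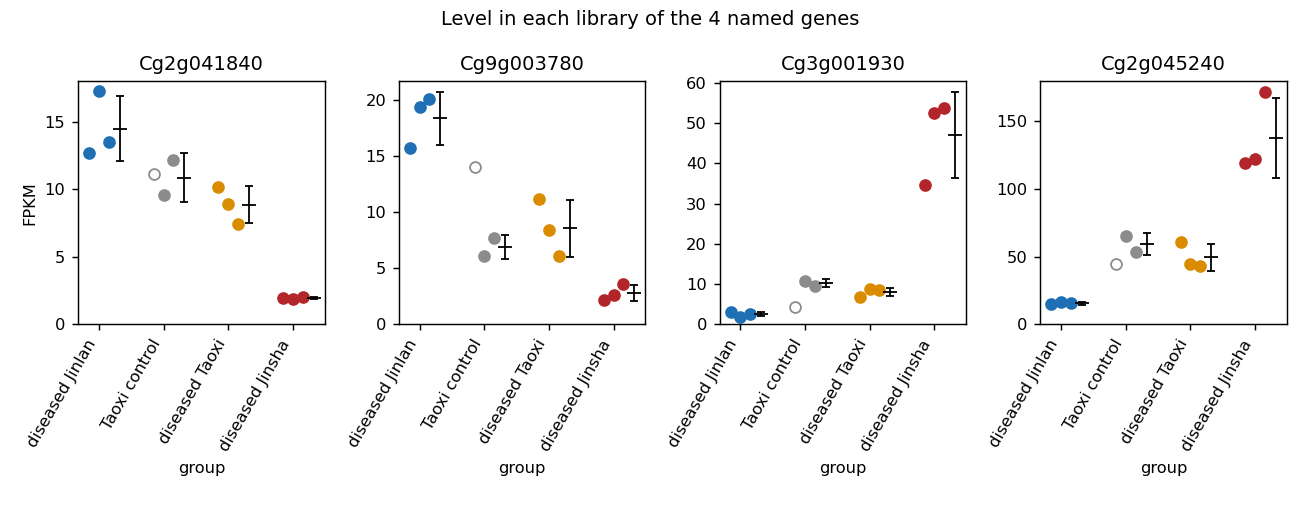
FPKM (y axis, linear from 0) of the 4 genes in each library by group (x axis); points are libraries, the open point is Taoxi control 1, and the black bar and whiskers are the mean and SD of 3 libraries, or of Taoxi controls 2 and 3. Cg2g041840 and Cg9g003780 were highest in Jinlan and lowest in Jinsha, and Cg3g001930 and Cg2g045240 the reverse, with Taoxi between.

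In the 9 genes high in Jinlan, the difference on the Jinsha side was the larger in 8. The median log2 difference from diseased Taoxi was 0.79 in Jinlan (0.65 to 1.14) and -1.08 in Jinsha (-1.74 to -0.77). Between Jinlan and Jinsha it was 1.91 (1.43 to 2.39). The highest group mean was 7.06 to 153 FPKM, under 10 FPKM for 2 genes and at or above 100 FPKM for 2. The most abundant was at 149, 156 and 154 FPKM in Jinlan, against 85.0, 91.1 and 88.7 FPKM in diseased Taoxi, and 42.8, 39.3 and 44.3 FPKM in Jinsha, with replicates much closer to each other than the groups.

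**Figure D3:**
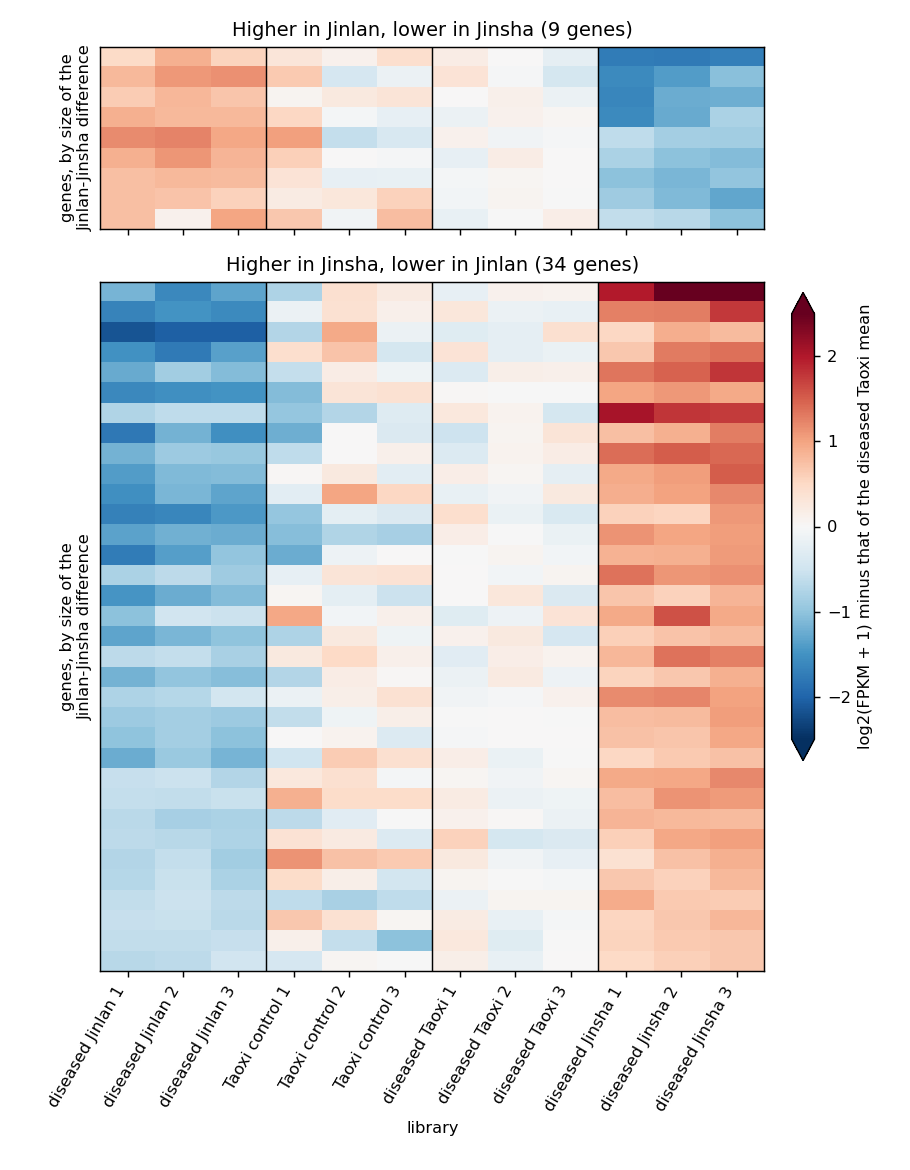
Level of each member (rows, ordered from the largest to the smallest Jinlan-Jinsha difference) in each of the 12 libraries (columns), as log2(FPKM + 1) minus that of the diseased Taoxi mean; red is higher and blue lower, and values beyond 2.5 take the end colour. All 9 genes of the upper panel are above the diseased Taoxi mean in each Jinlan library and below it in each Jinsha library, and all 34 of the lower panel the reverse.

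The libraries of diseased Jinlan, diseased Taoxi and diseased Jinsha did not overlap in any pair for all 34 genes high in Jinsha and for 8 of the 9 high in Jinlan. In the remaining gene, 1 Jinlan library (32.2 FPKM) lay below the highest diseased Taoxi library (33.8 FPKM). Among 17362 genes that reached 1 FPKM in 3 or more libraries, such an order was seen in 1.24% with Jinsha highest and in 2.44% with Jinlan highest. All 43 members were among these 17362 genes. In a linear model over 11 libraries (limma, Benjamini-Hochberg adjusted p below 0.05), all 34 genes passed as lower in Jinlan than in diseased Taoxi, as did 26.3% of all genes tested, and as higher in Jinsha than in diseased Taoxi, as did 37.9%. All 9 passed as higher in Jinlan (44.1% of all genes) and as lower in Jinsha (33.4%). Between Jinlan and Jinsha, all 34 were lower in Jinlan (16.0% of all genes) and all 9 higher (33.5%). The rule chose the genes on these same contrasts, and both share the diseased Taoxi libraries, so the counts add nothing to it. The median log2 difference over all genes tested was 0.15 between Jinlan and diseased Taoxi and 0.04 between Jinsha and diseased Taoxi.

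The sizes of both directions were counted again with the libraries scaled to reduce that shift of all genes. The cause of their unequal size was not tested. With median-ratio scaling of the libraries, made to bring such medians close to 0, 5 genes were high in Jinlan and 48 high in Jinsha, of which 5 and 31 were members. With upper-quartile scaling the numbers were 6 and 43. The genes high in Jinsha outnumbered the others under each scaling tried, and the 4 genes given by ID kept their direction.

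Many members lay close to a limit of the rule. The smaller of the differences from diseased Taoxi was under 0.7 log2 for 13 of the 34 genes and 3 of the 9. The nearest inside were at 0.593 for Jinsha-high genes and 0.653 for Jinlan-high genes, and the nearest outside at 0.578 and 0.532. In the band from 0.5 log2 up to the limit there were 16 more genes in the direction of high in Jinsha and 3 in the other. A further 14 and 2 genes met all conditions but the Taoxi limit, the nearest outside at 0.829 and 0.858 and the nearest inside at 0.790 and 0.501. Requiring 1 log2 on both sides left 9 genes high in Jinsha and 1 high in Jinlan. Below the floor of 3 FPKM stood 3 genes, all in the direction of high in Jinsha, the nearest at 2.99 FPKM against 3.02 FPKM inside.

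To read levels in a library that had no part in the choice of genes, genes were chosen anew with 1 of the 9 diseased libraries left out, for each in turn. This gave 31 to 40 genes high in Jinsha, of which 27 to 34 were members, and 8 to 12 high in Jinlan, of which 8 or 9 were members. A left-out Jinlan or Jinsha library was read against the mean of the diseased Taoxi libraries, which did take part in the choice. The left-out library lay on the side it was chosen for in 106 of 108 readings of a Jinsha library and 105 of 108 of a Jinlan library for genes high in Jinsha, and in 31 of 33 and 25 of 27 for genes high in Jinlan. The left-out value was at least 1.5-fold from the diseased Taoxi mean, on the same scale, in fewer, 86 of 108, 84 of 108, 27 of 33 and 21 of 27. A left-out diseased Taoxi library lay between the Jinlan and Jinsha means in 107 of 112 readings for genes high in Jinsha and 29 of 29 for genes high in Jinlan, but at least 1.5-fold from both means in 66 of 112 and 24 of 29. Those means and the other diseased Taoxi libraries took part in the choice, and no share for other IDs was taken. The same gene is read several times in these sums, so they are descriptions without a test.

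Within Taoxi, where control and diseased fruit can be compared, the members moved little by choice. The log2 difference of diseased from control fruit ran from -0.77 to 0.79 with a median of -0.06 in the genes high in Jinsha, 22 lower and 12 higher in diseased fruit by their means, and from -0.44 to 0.50 with a median of 0.01 in the genes high in Jinlan. It was under 0.3 in size for 20 of the 34 and 6 of the 9. By limma, 3 of the 34 were higher and 6 lower in diseased fruit at an adjusted p below 0.05, and 2 of the 9 were higher and 1 lower, against 18.9% higher and 11.1% lower of all genes tested, and the rule used this contrast too. The largest rise, in a gene high in Jinsha, went from 35.6 and 26.2 FPKM in Taoxi controls 2 and 3 to 64.9, 43.9 and 53.7 FPKM in diseased Taoxi. Taoxi control 1, at 59.0 FPKM, lay within the diseased range: by limma the difference was 0.79 log2 without this library (adjusted p = 0.00264) and 0.48 log2 with it (adjusted p = 0.253), below the 0.87 log2 of another member. The first gene was at 34.9, 35.05 and 36.2 FPKM in Jinlan, and Jinsha held 79.6, 85.6 and 86.8 FPKM, so Taoxi controls 2 and 3 sat near or below the Jinlan level while diseased Taoxi sat between the cultivars. The calls depend on the controls used: with all 12 libraries 4 of the 34 and 0 of the 9 passed (7 and 1 at an unadjusted p below 0.05, limma). The share of all genes that passed with all 12 libraries was not taken. Whether the members differ from other genes in this is therefore not known.

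The control fruit of Taoxi was bound by the rule only through its distance from diseased Taoxi. Taoxi controls 2 and 3 both lay between all Jinlan and all Jinsha libraries for 26 of the 34 genes high in Jinsha and 7 of the 9 high in Jinlan. Over the 17362 genes tested, they did so in 1.62% with Jinsha high and in 3.75% with Jinlan high. Diseased Taoxi lies between the cultivar means by the rule and the controls within 0.8 log2 of it, so this count is largely set by the choice. Among other IDs that met the floor and the Taoxi limit and whose diseased groups did not overlap in the same order, it was 84 of 141 and 163 of 362. Those IDs fell short of the 1.5-fold limit on at least 1 side, and the difference from the members was not tested. For 5 of the 34, a control reached the level of the Jinsha libraries, and for 3 it reached that of the Jinlan libraries. The extreme case stood at 303 and 285 FPKM in the controls and at 236, 303 and 338 FPKM in Jinsha, while diseased Taoxi was at 216, 170 and 157 FPKM and Jinlan at 108, 120 and 98.3 FPKM. In the 2 exceptions among the genes high in Jinlan, a control reached the Jinlan level and none that of Jinsha.

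Taoxi control 1 took no part in the choice of genes. For the 9 genes high in Jinlan it was above the diseased Taoxi mean in all 9, and above both other controls in 5. These genes are higher in Jinlan by the rule, and control 1 was close to diseased Jinlan over all genes. The counts are thus descriptions, and shares over all IDs were not taken for them. Control 1 was nearer to the diseased Jinlan mean than to the mean of controls 2 and 3 for 6 of the 9. The widest gap was in a gene at 15.9 FPKM in control 1 against 4.45 and 5.23 FPKM in controls 2 and 3, 7.91, 6.79 and 7.10 FPKM in diseased Taoxi and 17.8, 18.5 and 15.2 FPKM in Jinlan.

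For the 34 genes high in Jinsha, control 1 was more mixed. It was below both other controls in 20, above both in 8 and between them in 6, and shares over all IDs were not taken for these counts either. Control 1 was nearer to the Jinlan mean than to controls 2 and 3 for 17. With the Jinsha mean also compared, it was nearest to Jinlan for 16, to controls 2 and 3 for 13 and to Jinsha for 5. The 17 thus include a gene in which control 1 was nearest to Jinsha. In Cg3g001930 control 1 stood at 4.32 FPKM, between Jinlan and the other controls. In Cg2g045240 it stood at 44.1 FPKM, close to diseased Taoxi. In another gene it was at 13.5 FPKM, against 6.13 and 7.11 FPKM in the other controls, 2.65, 4.34 and 4.13 FPKM in Jinlan and 13.4, 21.5 and 13.4 FPKM in Jinsha.

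As a background, control 1 was nearer to Jinlan for 93.4% of 3403 Cg IDs at the level floor that were higher in Jinlan than in diseased Taoxi by at least 1.5-fold, and for 84.3% of 2169 that were lower. Among those that also met the Taoxi limit, a comparison added after these values were seen, the shares were 93.4% of 2996 and 85.4% of 1860. The members stood at 66.7% (6 of 9) and 50.0% (17 of 34). The distance of Jinlan from controls 2 and 3 was a little shorter in the members, with medians of 0.95 and 1.06 log2 against 1.08 and 1.18. Control 1 is 1 library, and the difference of these shares was not tested.

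**Figure D4:**
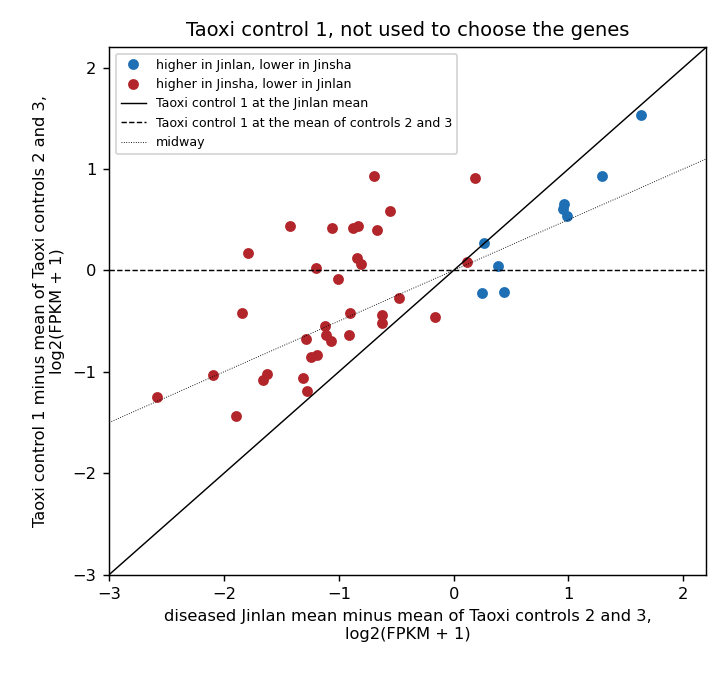
Taoxi control 1 (y axis) and the diseased Jinlan mean (x axis), each minus the mean of Taoxi controls 2 and 3 in log2(FPKM + 1), for the 9 genes high in Jinlan (blue) and the 34 high in Jinsha (red); the solid line marks control 1 at the Jinlan level, the dashed line control 1 at the level of the other controls and the dotted line midway. Control 1 was nearer to Jinlan for 6 of the 9 and 17 of the 34.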

How the data were processed

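The authors deposited a table of FPKM values for 12 labelled libraries; per the labels' protocols, an RNeasy kit was used for extraction and a SMARTer kit for the mRNA libraries. An aligner, a counting tool and a genome build are not named in the labels used here. Besides these libraries, 6 columns match no labelled sample and were not analysed here: their names join the prefix of the Jinlan or the Jinsha columns to the suffix of the Taoxi control columns, and no label says what they hold. Whole reads could not be recovered from low values (at most 1.59% of log2 ratios in a 0.02-wide bin), so no counting interval is given. Each column was assigned by the title of its sample.

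The members, the gene lists and the tests were chosen with earlier results of these data known. The gene lists were search terms on gene descriptions and could not be filled. By the rule for naming, each direction gives the 2 IDs with the largest difference between Jinlan and Jinsha among genes whose diseased groups do not overlap. Other genes are described by value.

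Group means of FPKM were taken on the log2(mean + 1) scale. limma 3.58.1 in R 4.3.3 was fitted to log2(FPKM + 1) over 11 libraries without Taoxi control 1, 1 mean per group, with a mean-variance trend, for 17362 genes that reached 1 FPKM in 3 or more libraries, two-sided, with Benjamini-Hochberg adjustment over all of them. Fold changes on this scale understate those of low genes. The fit was tested on simulated data. None of the members had the values of another ID. Near-identical gene copies could not be looked for. Figures were drawn with matplotlib 3.10.9.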

Additional observations from a re-analysis of the deposited data

How the results depend on the processing

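The number of genes high in Jinlan was 9 and went to 14 with a pseudocount of 0.1, 15 after rescaling to TPM, 5 with median-ratio scaling and 1 with a limit of 1 log2. The number high in Jinsha was 34 and went to 9 with a limit of 1 log2. Leaving out each of the 11 libraries gave 8 to 12 and 31 to 40. Other alternatives (a pseudocount of 0.5, no floor, a floor of 10 FPKM, upper-quartile scaling, means of log2 values, Taoxi control 1 kept, all IDs) stayed within 1.5 times of both numbers. Members that passed in Taoxi (limma) were 3 of 9 and 9 of 34, went to 0 and 4 with all 12 libraries, and ranged over 1 to 3 and 6 to 11 with a library left out. In the comparisons between cultivars 8 to 9 and 32 to 34 passed with a library left out, and with all 12 libraries 8 of 9 and 31 of 34 between Jinlan and Taoxi, 8 and 33 between Jinsha and Taoxi, and all between Jinlan and Jinsha. With the replicate number as a block, 2 of 9 and 9 of 34 passed in Taoxi, and all 9 and all 34 between the cultivars. The labels do not say whether the numbers pair the libraries. The deviations of same-numbered libraries from their group means correlated at -0.21 to 0.02 over 9 pairs, which with 3 libraries per group cannot settle it. No difference between Jinlan and Jinsha of the 4 genes given by ID changed sign. For low genes, the unknown depth limits what the values can show. The share of all genes that passed in the alternative fits was not taken, and the cause of these shifts was not tested.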

Other observations

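In some groups, 1 library was the highest or lowest for most of the genes high in Jinsha, and in others not. Among the Jinsha libraries, library 3 was the highest for 22 of the 34 genes and library 1 the lowest for 22, where over the 13138 IDs that met the floor and the Taoxi limit library 3 was the highest for 25.1% and library 1 the lowest for 28.8%. Jinlan library 1 was the lowest of its group for 20 of the 34, against 35.8% of those IDs, and Taoxi control 2 was above control 3 for 24 of the 34, against 41.6%. In diseased Taoxi, libraries 1, 2 and 3 were the highest for 16, 8 and 10 of the 34, against 29.1%, 37.7% and 33.2% of those IDs. They were the lowest for 12, 10 and 12, against 47.0%, 23.3% and 29.8%. The 34 genes are not independent of each other, and these orders were noticed in the data and not tested. The median spread between libraries of a group was wider in the members than in those IDs. Those IDs were not matched to the members for level, and the difference was not tested. In the Jinsha libraries, the median SD of log2(FPKM + 1) was 0.15 for the genes high in Jinsha and 0.21 for those high in Jinlan, against 0.09. In the same order it was 0.11 and 0.14 in Jinlan, against 0.08. In diseased Taoxi it was 0.21 and 0.14, against 0.11, and in Taoxi controls 2 and 3 it was 0.19 and 0.14, against 0.08.

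IDs with the prefix Cg2g made up 12 of the 43 members (27.9%; 4 of the 9 high in Jinlan and 8 of the 34 high in Jinsha), against 16.9% of the 13138 IDs. Cg5g held 6 members (13.95%, against 17.6%) and Cg3g 7, all of them high in Jinsha (16.3%, against 9.15%). The numbers in the Cg IDs are multiples of 10. The members with the closest numbers were 60 apart, both high in Jinsha: they stood at 12.1, 13.4 and 18.0 FPKM and at 14.6, 16.0 and 20.2 FPKM in Jinsha, at 4.44, 7.26 and 8.78 FPKM and at 3.87, 5.83 and 5.70 FPKM in diseased Taoxi, and at 1.26, 2.47 and 1.71 FPKM and at 1.56, 2.34 and 1.89 FPKM in Jinlan. Their order over the libraries of Jinsha and of Jinlan was the same, and in diseased Taoxi it was not. Among all 34 genes, Jinsha library 3 was also the highest for 22 and library 1 the lowest for 22. Jinlan library 2 was the highest for 18, against 42.4% of the 13138 IDs, and library 1 the lowest for 20, against 35.8%. The table gives no coordinates, and neither the shares by prefix nor this pair was tested.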
